A study of Mus musculus with 9 samples.

Results

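CC chemokine ligands are small secreted proteins that recruit leukocytes, named for a pair of adjacent cysteines near their amino terminus. The 10 genes described here, Ccl2, Ccl3, Ccl4, Ccl5, Ccl6, Ccl7, Ccl9, Ccl12, Ccl17 and Ccl22, were chosen by gene symbol from the 24061 symbols of an RNA-seq count table of mouse macrophages. Each had 1 row in that table, and no base of their exons was shared with another row; reads that fit more than 1 member were not examined. CC ligands act through G protein-coupled receptors on the surface of migrating cells. CCL2, CCL7 and CCL12 bind CCR2 and draw monocytes out of bone marrow and into tissue, CCL3, CCL4 and CCL5 act on monocytes, macrophages and T cells, CCL6 and CCL9 are rodent ligands of CCR1, and CCL17 and CCL22 bind CCR4 and draw regulatory and other CD4+ T cells. Macrophages that sense lipopolysaccharide (LPS), a component of the Gram-negative bacterial wall, through Toll-like receptor 4 switch on many of these genes by way of NF-kB, AP-1 and interferon regulatory factors.

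The study asked how the liver X receptors (LXRs), nuclear receptors activated by oxysterols, restrain inflammatory genes in bone-marrow-derived macrophages (BMDMs), primary cells grown from mouse marrow in L-cell conditioned medium, a source of macrophage colony-stimulating factor. The cells came from wild-type C57BL/6J mice, which per the methods were females of 8 to 10 weeks, and were treated on day 8 of culture after 1 day without serum. Veh cells received DMSO, LPS cells received DMSO for 3 hr and then LPS at 10 ng/mL, harvested 2 hr later, and T0-LPS cells received the synthetic LXR agonist T0901317 (T0) at 500 nM for 3 hr before the same LPS stimulation in the continued presence of T0. Each group had 3 libraries, each from a separately differentiated culture per the methods, and the time at which Veh cells were harvested is not given in the sources used here. No group received T0 without LPS. The 9 libraries held between 13299044 and 16467983 counted reads, and levels are given as CPM, counts scaled to a common library size after correction by TMM factors. In bulk RNA, fewer cells that express a gene and less RNA per cell cannot be told apart.

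The labelled cell type was checked against marker genes. Of 8 macrophage markers, 7 were in the table and 6 averaged at least 1 CPM, led by Lyz2 at 19957 CPM in Veh, and the markers of Veh, LPS and T0-LPS summed to 25815 ± 1355, 29832 ± 803 and 32558 ± 687 CPM (SD, n = 3 each). Lyz2 supplied most of each sum. Of the 6 macrophage markers tested in LPS against Veh, 3 were called higher (32.9% of all genes) and 1 lower (31.2% of all genes). The macrophage marker Itgam held no count and has 3 bases that no other row shares. T cell markers summed to at most 0.151 CPM in any library, and fibroblast markers to at most 0.661 CPM. Neutrophil markers summed to at most 3.97 CPM, B cell markers to at most 2.44 CPM, and mast cell or basophil markers to at most 2.38 CPM, nearly all of it from Hdc. The neutrophil marker S100a9 held no count and has 3 unshared bases, so that sum does not cover it. In Veh, endothelial markers summed to 188 ± 6.38 CPM (SD, n = 3), almost all from Vwf at 175 CPM, with Kdr at 13.4 CPM and Cdh5 at 0.0754 CPM; Pecam1 and Tek, with 57 and 0 unshared bases, held no count. Dendritic cell markers of Veh, LPS and T0-LPS summed to 492 ± 17.3, 650.2 ± 51.7 and 555 ± 53.2 CPM (SD, n = 3 each), nearly all from Itgax, which macrophages also express. In LPS against Veh, edgeR called 2 of 2 dendritic cell markers tested higher, and 1 of 1 neutrophil marker. Hdc was called higher too (32.9% of all genes were higher). Hdc and the dendritic cell marker Xcr1, at 0.0597 and 0.249 CPM in Veh, passed the filter on low counts through their LPS level. They had to differ, so these calls add no support. Called lower were 1 of 1 B cell and 1 of 2 endothelial markers tested (31.2% of all genes). The part of these markers in the chemokine results was not tested.

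The members lie in 2 places of the mm10 genome. On chromosome 11, 8 of them fall into a group of Ccl2, Ccl7 and Ccl12, all on the plus strand from 82035577 to 82103399, and, 1422 kb further along, a group of Ccl5, Ccl9, Ccl6, Ccl3 and Ccl4 from 83525779 to 83664683, with Ccl4 on the plus strand and the other 4 on the minus strand. Ccl6 and Ccl9 are neighbours 9.25 kb apart, and Ccl3 and Ccl4 are neighbours 13.2 kb apart. Ccl22, at 94745684 to 94751388, and Ccl17, at 94810453 to 94812036, lie 59.1 kb apart on the plus strand of chromosome 8. Ccl6 and Ccl9 have 4 exons and the other 8 have 3.

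RefSeq promoter sequences of build GRCm38.p6 were matched for 6 of the 10 members, Ccl3, Ccl6, Ccl9, Ccl12, Ccl17 and Ccl22. There was no entry for Ccl2, Ccl4, Ccl5 and Ccl7. The 250 bases before the start are shown for Ccl22, which had the largest change with LPS and the call with T0, for Ccl3, another strongly LPS-induced member, and for the neighbours Ccl9 and Ccl6, which stood highest at rest. They lie at chr8:94745434-94745683 on the plus strand for Ccl22 and, on the minus strand, at chr11:83649379-83649628 for Ccl3, chr11:83578637-83578886 for Ccl9 and chr11:83593088-83593337 for Ccl6. Sequences run from 5′ to 3′ along the gene's strand, and capitals mark matches, on either strand, to the motifs searched: an NF-kB form (GGGANNNNCC), the core of an interferon-stimulated response element (GAAANNGAAA), AP-1 (TGANTCA), a nuclear receptor half-site (AGGTCA) and a TATA box (TATAAA).
Ccl22: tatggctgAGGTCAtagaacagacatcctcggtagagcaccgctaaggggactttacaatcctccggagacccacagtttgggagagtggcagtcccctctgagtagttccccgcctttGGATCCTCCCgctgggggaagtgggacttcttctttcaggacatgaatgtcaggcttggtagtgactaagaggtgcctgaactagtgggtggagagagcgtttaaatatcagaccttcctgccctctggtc
Ccl3: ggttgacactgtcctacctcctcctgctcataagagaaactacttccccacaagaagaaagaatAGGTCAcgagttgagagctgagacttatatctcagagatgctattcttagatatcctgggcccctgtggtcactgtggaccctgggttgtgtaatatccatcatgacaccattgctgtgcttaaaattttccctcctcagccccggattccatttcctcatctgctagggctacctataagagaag
Ccl9: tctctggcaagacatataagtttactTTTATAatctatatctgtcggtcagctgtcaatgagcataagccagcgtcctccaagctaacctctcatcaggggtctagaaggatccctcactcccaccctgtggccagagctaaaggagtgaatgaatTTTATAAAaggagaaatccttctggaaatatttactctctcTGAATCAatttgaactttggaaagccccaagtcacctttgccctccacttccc
Ccl6: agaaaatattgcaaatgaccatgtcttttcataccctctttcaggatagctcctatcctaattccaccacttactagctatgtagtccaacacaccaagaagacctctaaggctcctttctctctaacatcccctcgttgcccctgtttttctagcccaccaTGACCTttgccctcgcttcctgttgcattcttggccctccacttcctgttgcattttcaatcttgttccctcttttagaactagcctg

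The NF-kB form was found in 1 of the 6 promoters, that of Ccl22, from -131 to -122 on the minus strand, and in 17.6% of the 32851 promoters of the table. AP-1 was found in Ccl9 alone among the 6, from -53 to -47, against 6.75% of all promoters, and the interferon element core in 0 of 6, against 2.98%. The nuclear receptor half-site was found in 4 of 6, Ccl3, Ccl6, Ccl17 and Ccl22, against 14.0%. The TATA box was found in Ccl12 from -31 to -26 and in Ccl9, with 3 matches, of which that from -94 to -89 on the minus strand overlaps the match from -92 to -87 on the plus strand, against 12.4%. These are matches of letters in a short window and were not tested as binding sites.

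In resting (Veh) cells the family was made up mostly of Ccl6 and Ccl9. Per kilobase of row length, the scale on which genes can be compared, Ccl6 stood first at 865 ± 21.99 CPM per kb (SD, n = 3) and Ccl9 second at 369 ± 7.19 CPM per kb (SD, n = 3). Ccl3 followed at 57.3 CPM per kb, Ccl4 at 28.95, Ccl5 at 17.3 and Ccl2 at 2.42, each apart from its neighbour in this order in all libraries. At the bottom, Ccl12 at 0.403 and Ccl7 at 0.393 CPM per kb overlapped, as did Ccl22 at 0.112 and Ccl17 at 0.0780. Summed over the 10 genes, the level was 2390.1, 2451 and 2442 CPM in the 3 Veh libraries, and Ccl6 and Ccl9 together supplied between 96.6% and 97.0% of it, or between 91.4% and 92.4% of the sum in CPM per kb.

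**Figure D1:**
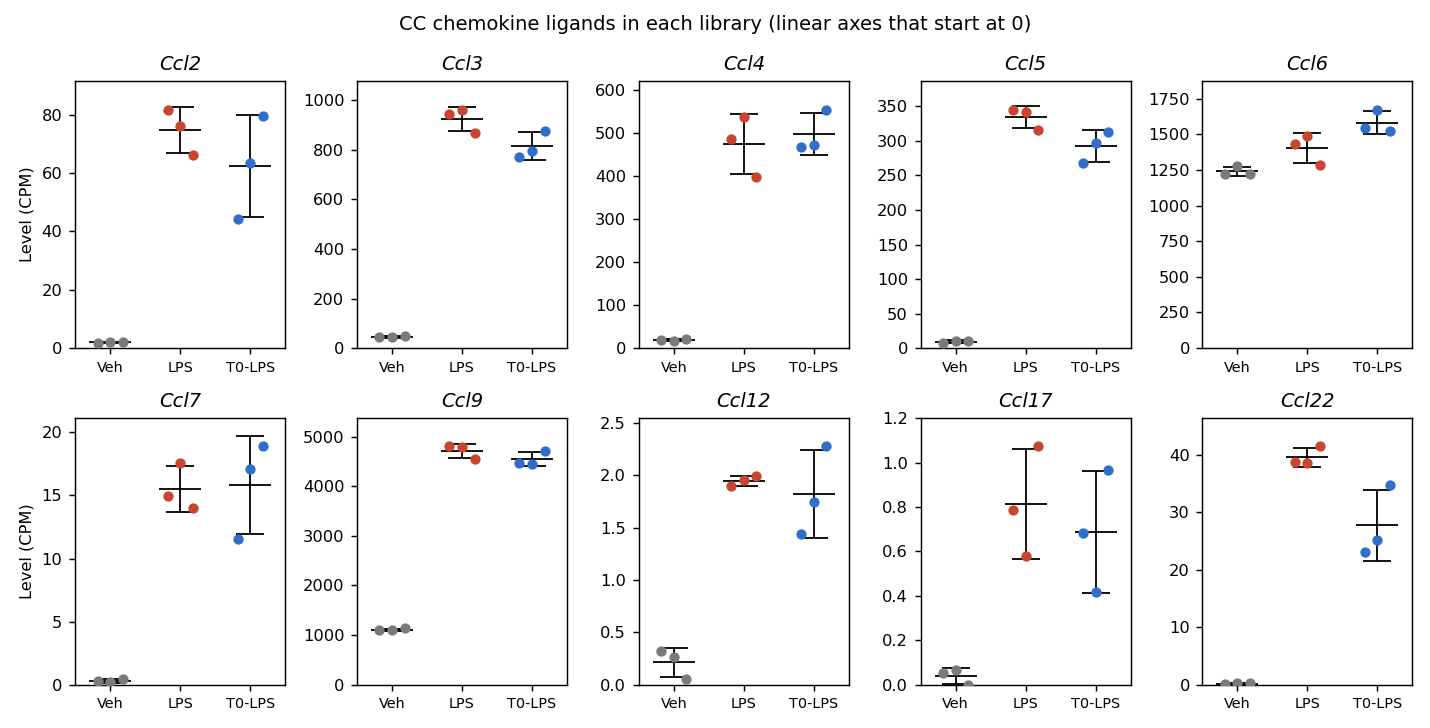
Level of each CC ligand in CPM (vertical axes, linear from 0, a separate scale per gene) in the 3 libraries of Veh, LPS and T0-LPS (points), with the mean (long bar) and SD (error bar). Ccl22 lay between 0.108 and 0.264 CPM in Veh, 38.5 and 41.5 CPM in LPS and 23.2 and 34.8 CPM in T0-LPS, whereas Ccl6 lay between 1222.5 and 1673 CPM in all groups on this scaling.

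LPS for 2 hr raised nearly the whole family, by very unequal factors. Of the 10 members, 9 passed the filter on low counts, and all 9 were called higher in LPS than in Veh at an adjusted p under 0.05, with Ccl6 the exception under another scaling, since its log2 fold change was 0.20 with TMM factors and -0.08 with library totals alone; of all 9559 genes tested, 32.9% were called higher. The median over all genes was -0.00187 with TMM factors and -0.28 with library totals, and relative to that median Ccl6 stood at 0.20. The 3 LPS libraries lay above the 3 Veh libraries for the same 9 members, as they did for 31.8% of all genes tested. The median log2 fold change of the 9 was 4.66. Ccl7, Ccl12 and Ccl22 had at most 8 counts in any Veh library, so they passed the filter through their LPS level and had to differ.

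Ccl22, a CCR4 ligand made by macrophages and dendritic cells, was at 0.108, 0.264 and 0.236 CPM in the Veh libraries and at 38.7, 38.5 and 41.5 CPM in the LPS libraries. All 3 LPS libraries were far above all Veh libraries, which held 2 to 4 counts each. The log2 fold change was 7.61 (SE 0.16; adjusted p = 4.8e-16 by the quasi-likelihood test of edgeR, with p values adjusted by the Benjamini-Hochberg method), the largest among the members and place 33 among the 9559 genes. Its chromosome 8 neighbour Ccl17, which shares the receptor, held 1, 1 and 0 counts in Veh and 10, 8 and 14 counts in LPS. It did not pass the filter, and the ratio of its group counts, per scaled library size, was 20.4 with an exact 95% counting interval from 5.21 to 176.

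The CCR2 ligands differed among themselves, with Ccl7 and Ccl2 next to Ccl22 by fold and Ccl12 below Ccl5, Ccl4 and Ccl3. Ccl2, the main attractant of inflammatory monocytes, stood at 1.68, 2.05 and 2.12 CPM in Veh and at 81.8, 76.2 and 66.1 CPM in LPS. The groups were apart, and the fold was 39.1 with a 95% interval from 32.9 to 46.4 (adjusted p = 5.9e-16 from edgeR). Ccl7 went from 0.271, 0.198 and 0.472 CPM to 15.0, 17.6 and 14.0 CPM, a log2 fold change of 5.61 (SE 0.22; edgeR adjusted p = 1e-12). Ccl12, the third gene of that group on chromosome 11, remained below 2 CPM in all LPS libraries, at 1.89, 1.95 and 1.99 CPM against 0.325, 0.264 and 0.0590 CPM in Veh. Its libraries did not overlap either, with a log2 fold change of 3.14 (SE 0.38; edgeR adjusted p = 1.9e-06).

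Ccl3, Ccl4 and Ccl5 rose from low to high levels. Ccl3 (MIP-1α) was at 44.0, 43.5 and 48.3 CPM in Veh and at 943, 962 and 867 CPM in LPS, and its neighbour Ccl4 (MIP-1β) was at 18.5, 17.4 and 21.5 CPM in Veh and at 486, 538 and 398 CPM in LPS. Neither gene had overlapping groups. Their log2 fold changes were 4.38 (SE 0.06) and 4.66 (SE 0.10). Ccl5 (RANTES), often described as a later, interferon-assisted target, stood at 7.05, 10.4 and 10.2 CPM in Veh and at 345, 342 and 316 CPM in LPS, again with no overlap and with a log2 fold change of 5.22 (SE 0.09; edgeR adjusted p = 2.6e-17).

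Ccl6 and Ccl9, which were highest at rest, had the smallest changes of the 9 members tested. Ccl9 (MIP-1γ) was at 1096, 1099 and 1135 CPM in Veh and at 4802, 4779 and 4542 CPM in LPS. The spread within each group was small beside the distance between them, with a fold of 4.32 and a 95% interval from 4.07 to 4.59 (adjusted p = 9.7e-17 from edgeR). Ccl6, 9.25 kb away on the same strand, was at 1222.5, 1278 and 1224 CPM in Veh and at 1435, 1487 and 1283.5 CPM in LPS. The lowest LPS library lay just above the highest Veh library, and the fold was 1.15 with a 95% interval from 1.07 to 1.24 (adjusted p = 0.0025 from edgeR, between 1.5e-05 and 0.14 over the alternatives). The 0.14 came with library totals, under which the sign turned.

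After LPS the order of levels per kilobase was different. Ccl9 was first at 1565 ± 47.8 CPM per kb (SD, n = 3) and Ccl3 second at 1169.7 ± 63.3 CPM per kb (SD, n = 3), ahead of Ccl6 at 976 ± 73.6 CPM per kb (SD, n = 3). Ccl4 at 719 and Ccl5 at 630.2 CPM per kb overlapped, and Ccl22 at 21.8 overlapped with Ccl7 at 19.4 CPM per kb, both well below Ccl2 at 92.65. Ccl12 at 3.63 and Ccl17 at 1.58 CPM per kb were last. The summed level was 8150.1, 8243 and 7532 CPM in the LPS libraries, 3.28 times the Veh mean, and the share from Ccl6 and Ccl9 was between 76.0% and 77.3%. In CPM per kb, where the longer row of Ccl9 weighs less, that share was between 48.2% and 49.8%. Without those 2 genes, the other 8 summed to 76.3 ± 5.81 and 1865 ± 141 CPM in Veh and LPS (SD, n = 3 each), a ratio of 24.4.

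**Figure D2:**
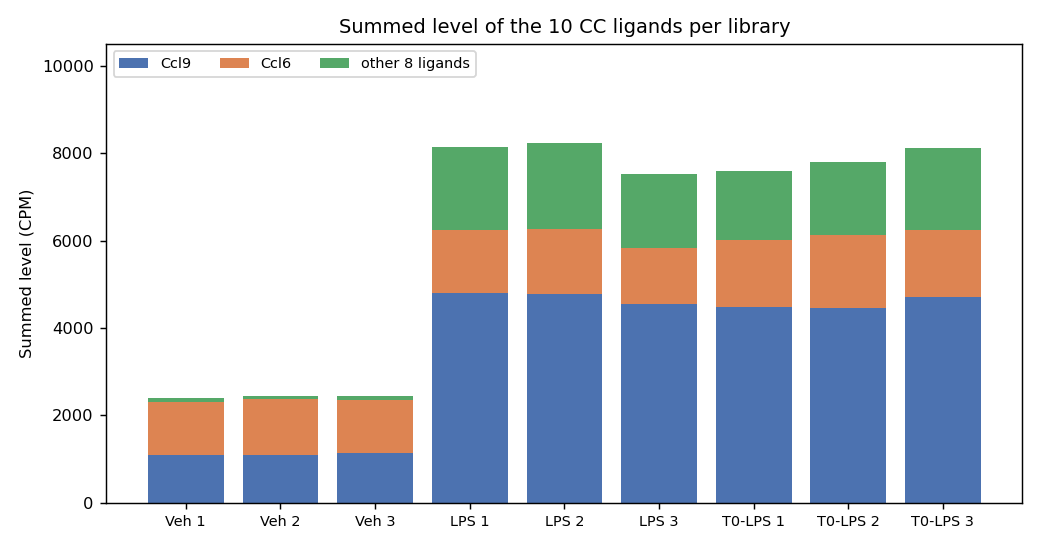
Summed level of the 10 CC ligands in CPM (vertical axis, linear from 0) in each of the 9 libraries, split into Ccl9, Ccl6 and the other 8 genes (stacked bars). The sum lay between 2390.1 and 2451 CPM in Veh, 7532 and 8243 CPM in LPS and 7604 and 8115 CPM in T0-LPS, so the LPS and T0-LPS ranges overlapped.

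The comparison of T0-LPS with LPS asked whether the LXR agonist changed these genes in stimulated cells. The answer for most of the family was a difference too small or too variable to call, and Ccl22 was the exception. All 10 members were tested, and 1 of them, Ccl22, was called lower in T0-LPS, where 1.83% of the 9348 genes tested were called lower. No member was called higher by edgeR, against 1.35% of all genes; at an unadjusted p under 0.05, 1 member, Ccl6, was higher (6.46% of all genes) and 3, Ccl22, Ccl5 and Ccl3, were lower (7.43% of all genes), DESeq2 and limma-voom called none higher, and edgeR without the filter on low counts called Ccl6. Members called lower were 3 with DESeq2, 1 with limma-voom and 4 without that filter, among 168, 170 and 285 genes called lower. The median log2 fold change of the 10 was -0.14, and that of all genes was 0.00282. Groups did not overlap for Ccl22 and Ccl5, both lower, as for 9.08% of all genes tested, and for Ccl6, higher, as for 10.1%. An exact permutation test of 3 libraries against 3 cannot give a 2-sided p under 0.1.

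Ccl22 was at 23.2, 25.2 and 34.8 CPM in the T0-LPS libraries, against 38.7, 38.5 and 41.5 CPM in LPS. All 3 T0-LPS libraries lay below all LPS libraries, and replicate 3 lay nearest to them. The means with and without T0 were 27.7 ± 6.22 and 39.6 ± 1.66 CPM (SD, n = 3 each), and the fitted fold was 0.700 with a 95% interval from 0.593 to 0.827 (log2 fold change -0.51, SE 0.11, adjusted p = 0.019 from edgeR, between 4.1e-08 and 0.11 over the alternatives). The 4.1e-08 came without the filter on low counts. The next lowest edgeR adjusted p was 0.00019, with the replicate number as a block. The call was lost without LPS replicate 1 (log2 fold change -0.53, edgeR adjusted p = 0.057), without T0-LPS replicate 1 (-0.40, adjusted p = 0.066) and without T0-LPS replicate 2 (-0.44, adjusted p = 0.11), and remained in the other 12 alternatives. Dendritic cell markers, summed, were at 709, 631 and 611 CPM in LPS and at 547, 506 and 611 CPM in T0-LPS; 2 of the 8 were tested and neither was called, Xcr1 averaged 1.78 CPM in LPS and 2.12 CPM in T0-LPS, Zbtb46 averaged 0.715 and 0.433 CPM, Flt3 had 1 count in all 9 libraries and Clec9a has no unshared base. Their part in the Ccl22 result was not tested.

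Ccl5 and Ccl3 had smaller values on the same side, which depended on the method. Ccl5 was at 267, 297 and 313 CPM in T0-LPS against 345, 342 and 316 CPM in LPS. The groups were apart by the distance between 313 and 316 CPM. Its fold was 0.871 with a 95% interval from 0.801 to 0.947 (adjusted p = 0.077 from edgeR, between 0.0068 and 0.34 over the alternatives). Ccl3 was at 773, 796 and 877 CPM in T0-LPS against 943, 962 and 867 CPM in LPS. The highest T0-LPS library, replicate 3, overlapped with the lowest LPS library, also numbered 3. The fold was 0.879 with a 95% interval from 0.812 to 0.952 (adjusted p = 0.086 from edgeR, between 0.0068 and 0.34 over the alternatives). For both genes the 0.0068 came without the filter on low counts. DESeq2 called both genes lower, each with an adjusted p of 0.044, and so did edgeR without LPS replicate 3, with adjusted p values of 0.016 for Ccl3 and 0.024 for Ccl5; without T0-LPS replicate 3, Ccl3 had an adjusted p of 0.038.

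For the CCR2 ligands the T0-LPS libraries were widely spread. Ccl2 was at 44.3, 63.5 and 79.5 CPM in T0-LPS, a range that took in all but the highest of the LPS values of 81.8, 76.2 and 66.1 CPM. Its log2 fold change was -0.26 (SE 0.14; edgeR adjusted p = 0.45), and it was -0.07 without T0-LPS replicate 1 and -0.47 without T0-LPS replicate 3 (edgeR adjusted p = 0.88 and 0.058, between 0.0051 and 0.89 over the alternatives). The 0.0051 came without the filter on low counts, the sole alternative that called Ccl2, with a log2 fold change of -0.25. Ccl7 was at 11.5, 17.1 and 18.9 CPM in T0-LPS, on both sides of its LPS libraries, with a log2 fold change of 0.03 that ranged from -0.12 to 0.21 when single libraries were left out. Ccl12 was at 1.44, 1.74 and 2.27 CPM, also on both sides, with -0.09 and a range from -0.29 to 0.04. The 95% intervals of Ccl7 and Ccl12, as folds, ran from 0.821 to 1.26 and from 0.653 to 1.34, so changes within those limits are not excluded.

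The remaining members had log2 fold changes close to 0 or uncertain. Ccl9 was at 4470.1, 4453 and 4713 CPM in T0-LPS, overlapping with LPS, and its narrow 95% interval ran from a fold of 0.905 to 1.02. Ccl6 was at 1547, 1673 and 1522 CPM in T0-LPS against 1435, 1487 and 1283.5 CPM in LPS, with no overlap and a log2 fold change of 0.17 (95% interval from 0.05 to 0.29, adjusted p = 0.14 from edgeR, between 0.0071 and 0.42 over the alternatives). The 0.0071 came without the filter on low counts. Ccl4 was at 466, 472 and 554 CPM, within and just above the span of its LPS libraries, with a log2 fold change of 0.06, between -0.04 and 0.16 when single libraries were left out. Ccl17 held 9, 6 and 14 counts in T0-LPS against 10, 8 and 14 counts in LPS, and its fold of 0.851 had a 95% interval from 0.469 to 1.54. Ccl3 and Ccl4, though neighbours with LPS folds of similar size, thus had values on opposite sides of 0 with T0; the difference between them was not tested.

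**Figure D3:**
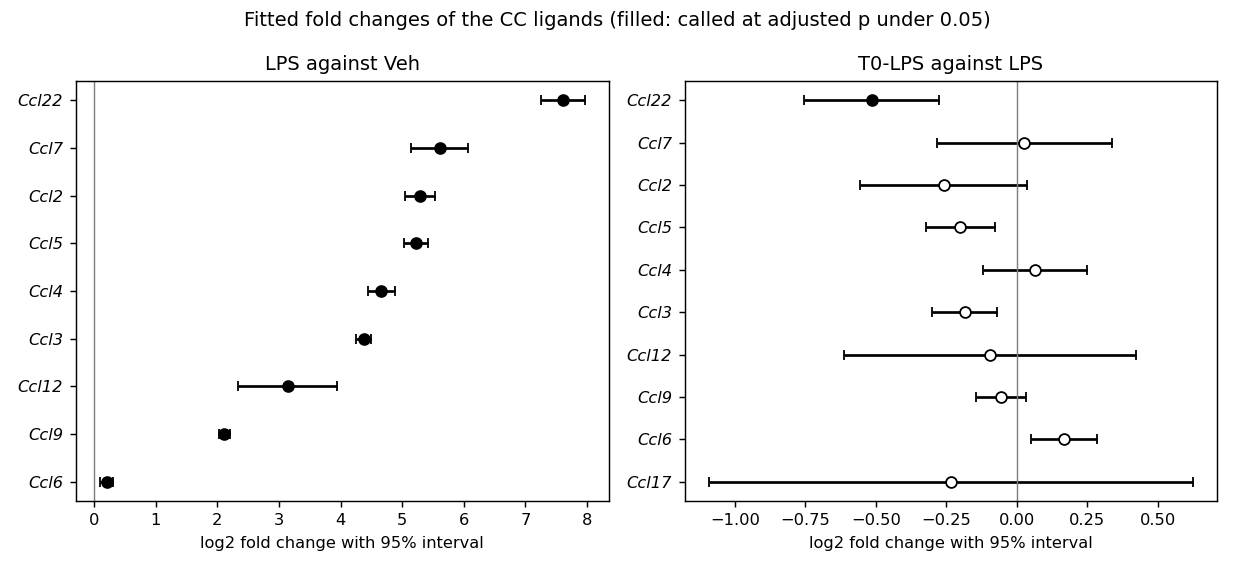
Log2 fold change (horizontal axes, with a separate scale per panel) of each CC ligand in LPS against Veh (left, 9 members tested) and T0-LPS against LPS (right, 10 members tested), with 95% intervals and filled points for calls at an adjusted p under 0.05. LPS values run from 0.20 for Ccl6, which is -0.08 when scaled by library totals, to 7.61 for Ccl22, and with T0 the sole filled point is Ccl22 at -0.51.

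Some libraries stood at the edge of their group for many members. T0-LPS replicate 3 was the highest of its group for 9 of the 10 members, the exception being Ccl6, whereas it was the highest for 30.03% of the 7299 genes with a mean of at least 5 CPM. T0-LPS replicate 1 was the lowest for 7 members, against 37.4% of those genes, and LPS replicate 3 was the lowest for 7 members, against 39.7%. No LPS library was the highest for more than 4 members, and no Veh library was the highest or the lowest for more than 5. As a share of the LPS mean, T0-LPS replicate 1 stood at 59.3% for Ccl2, 58.6% for Ccl22 and 94.95% for Ccl9, and T0-LPS replicate 3 at 106%, 88.0% and 100.1%. The part of single libraries in the T0 results beyond the fits without them was not tested.

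**Figure D4:**
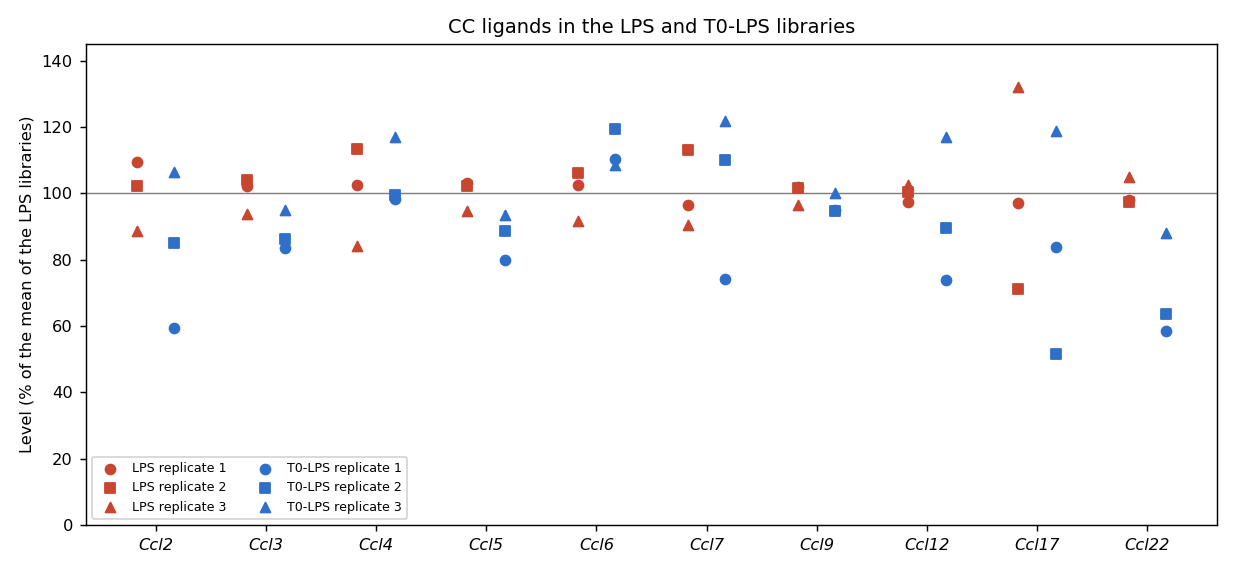
Level of each CC ligand in the 3 LPS and 3 T0-LPS libraries as a percent of the mean of the LPS libraries (vertical axis, linear from 0), with a symbol per replicate number. For Ccl22 the T0-LPS libraries stand at 58.6%, 63.6% and 88.0%, below all LPS libraries, and for Ccl2 they stand at 59.3%, 85.0% and 106%, overlapping with LPS.

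Against Veh, the T0-LPS cells still held the LPS-induced family at raised levels. The same 9 members passed the filter and were called higher in T0-LPS than in Veh, with 32.4% of all 9636 genes called higher, though Ccl7, Ccl12 and Ccl22 passed through their T0-LPS level and had to differ; with library totals Ccl6 kept its sign but lost the call, at a log2 fold change of 0.08. This comparison shares its Veh libraries with LPS against Veh, so the values are set side by side. They were 7.07 and 7.61 for Ccl22, 5.01 and 5.29 for Ccl2, 5.61 and 5.61 for Ccl7, 4.999 and 5.22 for Ccl5, 4.17 and 4.38 for Ccl3, 4.70 and 4.66 for Ccl4, 3.02 and 3.14 for Ccl12, 2.03 and 2.11 for Ccl9 and 0.35 and 0.20 for Ccl6, with T0-LPS named before LPS. The ratio of Ccl17 counts to Veh was 17.4 in T0-LPS, with an exact 95% counting interval from 4.41 to 151. The fitted fold of Ccl22 in T0-LPS against Veh was 135, with a 95% interval from 89.7 to 203, over Veh libraries of 2 to 4 counts each. The summed level was 7604, 7799 and 8115 CPM, 0.983 times the LPS mean.

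The other CC ligands of the mouse were scarce in these cells. Of 14 listed, 2 were tested in LPS against Veh. Ccl28, a mucosal ligand, was called lower in LPS (31.2% of all genes tested were called lower), going from 4.15 ± 0.594 to 1.95 ± 0.896 CPM (SD, n = 3 each). Ccl25, known from thymus and gut, was called higher (32.9% of all genes tested were called higher), with a log2 fold change of 0.70 (SE 0.29, edgeR adjusted p = 0.046). It was measured on 407 of 2141 exon bases, with 10 to 13 counts in Veh and 14 to 16 counts in LPS. Neither Ccl28 nor Ccl25 was called with T0. Of the rest, Ccl24 had 5 to 9 counts and Ccl8 had 2 to 5 counts in the LPS libraries, and 10 had no count in any library; of these 10, Ccl20 has 3 unshared bases and Ccl21a, Ccl21b, Ccl21c and Ccl27b have none, so they could not be measured.

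Of 16 genes listed as CC chemokine or atypical receptors, not all of which bind the 10 members, 5 were tested. For 4 of the 16, Ccr6, Ccr9, Ackr2 and Ackr3, under 10% of the exon bases were unshared. In LPS against Veh 3 were called higher (32.9% of all genes) and 1 lower (31.2% of all genes), with a median log2 fold change of 0.82, and with T0 none was called by edgeR. Ccrl2, an atypical receptor that presents chemerin, went from 33.0 ± 2.71 to 563 ± 44.3 CPM (SD, n = 3 each), or 4.12 on the log2 scale (SE 0.07). In T0-LPS it was at 492 ± 23.0 CPM (SD, n = 3; log2 fold change against LPS -0.20, adjusted p = 0.076 from edgeR). Ccr1, a receptor of CCL6 and CCL9 among other ligands, rose by 0.83 on the log2 scale and Ccr3 by 0.82. Ccr2, which was named after its values were seen, fell from 79.1 ± 13.3 to 44.8 ± 5.51 CPM (SD, n = 3 each), while its ligands Ccl2, Ccl7 and Ccl12 rose. Ccr4, the receptor of CCL17 and CCL22, had at most 5 counts in any library.

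Of 27 regulators of chemokine genes, 23 were tested in LPS against Veh, with 14 called higher (32.9% of all genes), 7 lower (31.2% of all genes) and a median log2 fold change of 1.55. The largest changes were in negative regulators of NF-kB: Tnfaip3 (log2 fold change 5.79, SE 0.16), which was measured on 431 of 8759 exon bases and, with 5 to 9 counts in Veh, passed the filter through its LPS level and had to differ, Nfkbie (4.999, SE 0.05) and Nfkbia (4.95, SE 0.06). With T0, 22 were tested, 2 were called higher (1.35% of all genes) and 3 lower (1.83% of all genes), and their median log2 fold change was -0.09. Irf4, an interferon regulatory factor linked to Ccl17 and Ccl22 expression in myeloid cells, was lower with T0, at 1.84 ± 0.390 against 3.93 ± 0.528 CPM (SD, n = 3 each), a log2 fold change of -1.08 (SE 0.22; edgeR adjusted p = 0.0097). It was also lower in LPS than in Veh (log2 fold change -0.63), and its part in the Ccl22 result was not tested. Irf8, needed for macrophage and dendritic cell identity, and Atf3, a repressor of LPS-induced genes, had likewise fallen with LPS and were higher with T0, by 0.58 and 0.66 on the log2 scale. Junb, an AP-1 subunit, and Zfp36, which destabilizes chemokine and cytokine mRNA, were lower with T0, with log2 fold changes of -0.31 and -0.25. For 8 of the 27, among them Relb and Irf7, under 10% of the exon bases were unshared, and their counts are uncertain.

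Both treatments were visible in genes listed as checks. All 9 LXR target genes tested were called higher with T0 (1.35% of all genes), with a median log2 fold change of 1.39; among them Scd2 had 3.92, Scd1 3.18, Abcg1 2.09 and Abca1 1.47, and Srebf1, Lpcat3, Mylip, Mertk and Arl4c lay between 0.93 and 1.39. In LPS against Veh, 2 of the 9 were called higher (32.9% of all genes) and 4 lower (31.2% of all genes), with Arl4c at -1.85, Abca1 at 1.34 and Abcg1 at -1.25. All 7 LPS response genes were called higher with LPS, but Tnf, Il6, Ptgs2 and Cxcl1, with at most 8 counts in their lowest Veh library, passed the filter through their LPS level, which favours a call, and Tnf rests on 48 of 3258 exon bases. Il1b, Cxcl2 and Cxcl10 passed it in Veh as well. The list was led by Cxcl1 (10.24), Il1b (9.34) and Cxcl2 (9.32). With T0, 4 of these 7 were called lower (1.83% of all genes), Ptgs2 (-0.68), Il1b (-0.48), Cxcl1 (-0.25) and Cxcl2 (-0.21), and the median of the 7 was -0.25, where that of the 10 CC ligands was -0.14. The neutrophil-attracting Cxcl1 and Cxcl2 were called with changes no larger than that of Ccl2, -0.26, whose standard error of 0.14 was above theirs of 0.04 each.

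The genes with the pattern most like each member were found by the root mean square difference of log2(CPM + 1), centred per gene, over the 9 libraries, among 7299 genes with a mean of at least 5 CPM. Nearest to Ccl22 were Edn1 (0.149) and Ifi205 (0.155), with log2 fold changes with T0 of -0.61 and -0.52, values that entered the choice of these genes. Ifi205 was also the second nearest to Ccl2 (0.164), after Abtb2 (0.157). Nfkbia, the NF-kB inhibitor gene, was the second nearest to both Ccl4 (0.171) and Ccl5 (0.152), after Bcl2a1a (0.169) and Nod2 (0.140), and Ccl3 lay nearest to Sdc4 (0.0784) and Bcl2a1b (0.117). Ccl7 lay nearest to Hspa1b (0.181) and Tnfaip2 (0.185), Ccl9 to Snx20 (0.0556) and Gsap (0.0572), and Ccl6 to Rnf7 (0.0379) and Etv5 (0.0388). The fitted log2 fold change with LPS was 5.61 for Ccl7, but 3.64 for Hspa1b and 3.78 for Tnfaip2. Ccl12 lay nearest to Tsr1 (0.106) and Kif1b (0.109), and Ccl17 to Peli3 (0.101) and Zc3h15 (0.119). The added 1 CPM compresses the changes of members low in Veh, here Ccl2, Ccl7, Ccl12, Ccl17 and Ccl22, with means of at most 1.95 CPM. Genes near these members by this measure can thus differ from them in fitted fold change. No member was among the 2 nearest genes of another. The member nearest to both Ccl2 (0.214) and Ccl5 (0.206) was Ccl22, and the neighbours Ccl3 and Ccl4 were each other's nearest member (0.216). By the fits, the log2 fold changes with LPS were 7.61 for Ccl22, 5.29 for Ccl2 and 5.22 for Ccl5. Likewise, Bcl2a1a had 8.41 where Ccl4 had 4.66. Ccl12 and Ccl17, under 5 CPM, were not candidates.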

How the data were processed

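The values used are the raw counts that the authors deposited. Per their methods, poly(A) libraries were adaptor-trimmed (cutadapt), mapped to mm10 (HISAT2) and counted over RefSeq genes (Subread featureCounts). Their versions are listed in the paper's resources table. The authors' tables of their own comparisons were not used. Rows of a symbol were summed (32850 rows, 24061 symbols). A read on a base that more than 1 row covers was left uncounted upstream, so some genes rest on few bases. Counts were fitted with edgeR 4.0.16 (R 4.3.3) in pairs of groups, 6 libraries each, with TMM factors, filterByExpr, the quasi-likelihood test and Benjamini-Hochberg adjustment over all genes tested, and called at an adjusted p under 0.05. Intervals (95%) come from the fit, except those of Ccl17 against Veh, which cover counting error only. DESeq2 1.42.0, limma-voom 3.58.1, other scalings and filters, a fit of all 9 libraries, a replicate block, unsummed rows, a threshold of 0.10 and fits without each library were alternatives. The fit was tested on simulated data with the same spread setting for every gene, so that test does not cover genes with wider spread. It recovered 74% to 81% of simulated 1.5-fold changes over the 3 comparisons, and 76% in T0-LPS against LPS. Members and lists were chosen with earlier results of these data known. Named genes are all members, list genes called in T0-LPS against LPS, the 3 largest absolute log2 fold changes per list among those called in LPS against Veh, the 2 nearest genes per member and the most abundant marker per cell type. Other genes named (Ccr2, Ccr4, further CC ligands, single markers, genes with few unshared bases) were chosen after their values were seen. Protein identity between members was planned and not run.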

Additional observations from a re-analysis of the deposited data

How the results depend on the processing

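In LPS against Veh, the 9 members tested kept their direction and call in all alternatives except Ccl6 with library totals, where the sign turned (log2 fold change -0.08, edgeR adjusted p = 0.14). In T0-LPS against Veh they did so except Ccl6 with library totals (0.08, edgeR adjusted p = 0.07). Ccl17 was tested against Veh in 7 alternatives for LPS and 3 for T0-LPS and called in each. With at most 1 count in any Veh library, it could pass a filter on low counts only through its LPS or T0-LPS level. Where such a filter applied it had to differ, so these calls add no support. Library totals moved the genes called in LPS against Veh to 1694 higher and 5411 lower (76.2% lower, against 48.6% with TMM), and in T0-LPS against Veh to 1659 higher and 5523 lower (76.9% lower, against 50.4%). In T0-LPS against LPS, 1 CC ligand was called lower and 0 higher by edgeR as reported; without a filter on low counts these were 4 and 1, with DESeq2 3 were lower, and at an adjusted p under 0.10 3 were lower. Leaving out each library gave 0 to 3 CC ligands lower and 0 higher, 59 to 167 genes higher and 82 to 191 genes lower (59 and 82 without LPS replicate 1, 103 lower without T0-LPS replicate 1, 78 and 94 without T0-LPS replicate 2), and no filter gave 225 genes higher and 285 lower; the cause was not tested. Signs turned for uncalled members when 1 library was left out, with ranges of -0.04 to 0.16 for Ccl4, -0.12 to 0.21 for Ccl7, -0.29 to 0.04 for Ccl12 and -0.57 to 0.03 for Ccl17. With the replicate number as a block, 2 CC ligands were called lower, Ccl22 and Ccl5, with edgeR adjusted p values of 0.00019 and 0.048. That fit called 155 genes higher and 230 lower, against 126 and 171 without the block. Same-numbered libraries did not deviate together, with correlations between -0.123 and 0.117 over the 3 comparisons. With 3 libraries per group such correlations cannot exclude pairing. The main fits did not treat the libraries as pairs. With a minimum of 1 CPM, 19 of the 20 nearest genes were the same. Depth limits Ccl12 and Ccl17, which held at most 33 and 14 counts in a library.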
